A study of Mus musculus with 6 samples.

Results

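The C/EBP family (CCAAT/enhancer-binding proteins) is represented here by 5 genes of the mouse, Cebpa, Cebpb, Cebpd, Cebpe and Cebpg, taken by name from 21887 protein-coding genes of RefSeq. For each gene, the accessible intervals that overlap its span or the 50 kb on either side were collected from a combined ATAC-seq list of mouse liver. The windows held 57 distinct intervals out of 120905 in the list. The labels describe 3 liver libraries of 129S1/SvImJ mice and 3 of C57BL/6J mice, both inbred strains, all from wild type males on a high-fat diet. Nothing in the labels tells whether the 3 libraries of a strain are separate animals, the transposed cells are given only by an unexplained abbreviation, and every library also carries an antibody entry for Esrrg although ATAC-seq (transposase tagging of open DNA) uses none. The list gives chromosome, start and end on mm10 and nothing else, so strains and libraries are not told apart below, there are no replicates, the depth is unknown, and no p-value is given.

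C/EBP proteins are basic leucine zipper (bZIP) transcription factors that pair with each other or with related bZIP proteins through the zipper and bind DNA through the basic region. C/EBPα maintains hepatocyte genes for glucose, amino acid and lipid metabolism. C/EBPβ and C/EBPδ are induced by inflammatory signals and hormones and act on acute phase genes, C/EBPε acts late in granulocyte maturation, and the broadly expressed C/EBPγ lacks a strong activation domain and mainly acts as a dimer partner.

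RefSeq promoter windows of GRCm38.p6 (the mm10 build), from 250 bases before to 50 after the annotated start, were found for 3 of the 5 genes. They are shown because they differ in the main feature described below, an interval at the start of Cebpg and none at that of Cebpa or Cebpb. In the Cebpg sequence the capitals mark the 163 bases that lie inside an interval. In the other sequences they mark the motifs that were found. All are written 5′ to 3′ on the strand of the gene.
Cebpa (chr7:35119043-35119342, plus strand): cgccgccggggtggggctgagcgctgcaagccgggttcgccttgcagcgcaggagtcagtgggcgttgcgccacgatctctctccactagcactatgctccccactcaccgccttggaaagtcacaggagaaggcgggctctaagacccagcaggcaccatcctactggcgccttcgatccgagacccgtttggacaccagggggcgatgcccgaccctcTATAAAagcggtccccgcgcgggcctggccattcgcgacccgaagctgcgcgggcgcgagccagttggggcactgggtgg
Cebpb (chr2:167688665-167688964, plus strand): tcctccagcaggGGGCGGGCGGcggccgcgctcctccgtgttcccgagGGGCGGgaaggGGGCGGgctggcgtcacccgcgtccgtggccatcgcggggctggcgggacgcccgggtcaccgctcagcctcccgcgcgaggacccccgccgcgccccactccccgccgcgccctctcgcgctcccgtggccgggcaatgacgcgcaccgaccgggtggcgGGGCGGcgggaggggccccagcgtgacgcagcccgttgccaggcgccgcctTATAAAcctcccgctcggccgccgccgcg
Cebpg (chr7:35056517-35056816, minus strand): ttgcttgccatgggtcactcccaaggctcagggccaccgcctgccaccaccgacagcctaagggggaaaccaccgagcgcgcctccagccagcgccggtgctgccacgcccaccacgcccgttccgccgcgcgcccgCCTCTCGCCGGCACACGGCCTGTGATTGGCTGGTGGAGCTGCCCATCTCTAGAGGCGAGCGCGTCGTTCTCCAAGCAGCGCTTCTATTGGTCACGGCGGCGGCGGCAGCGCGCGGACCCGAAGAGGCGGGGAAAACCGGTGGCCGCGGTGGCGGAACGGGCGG

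All 3 promoters were rich in CpG. GC content was 67.3% for Cebpa, 80.7% for Cebpb and 71.7% for Cebpg, against a median of 56.3% over 21238 promoter windows of protein-coding genes. The observed to expected CpG ratio was 0.853, 1.03 and 0.988 in the same order of genes. Among promoter windows with at least 55% GC and a ratio of at least 0.6, a class set after interval positions had been seen, 77.9% were overlapped by an interval, and among all promoter windows 48.3% were. Cebpg belonged to the overlapped majority of that class, while Cebpa and Cebpb belonged to the rest.

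Motifs were searched on both strands. The letters TATAAA, those of the TATA box that lies upstream of many start sites, began at position -30 of Cebpa, counted from the annotated start as 1. In Cebpb they began at position 22, downstream of the annotated start, and 12.6% of promoter windows held a match. The GC box GGGCGG, bound by SP family factors, occurred 5 times in Cebpb, with one pair overlapping, and once in Cebpg at position 45, against 46.2% of windows with at least 1. CCAAT, the box bound by NF-Y, was present 2 times in Cebpg on the opposite strand, starting at -89 and -28, and in 38.2% of windows. Both CCAAT matches and the GC box of Cebpg lay inside its interval, which covered positions -113 to 50 of the window and continued downstream of it. No match was found in these windows for TTGCNNAA (a C/EBP core motif, 10.2% of all windows), TGACGTCA (the cyclic AMP response element, 2.24%), CACGTG (the E-box, 7.84%), TTCNNNGAA (STAT, 7.69%), TTANGTAA (the D-box, 2.24%) or AGGTCA (a nuclear receptor core motif, 14.7%).

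The windows round Cebpa and Cebpb held the most intervals, 14 each, followed by Cebpe with 13, Cebpg with 12 and Cebpd with 9. Cebpa and Cebpg are neighbours on chromosome 7, and 5 intervals lay in both of their windows. Per Mb of window the densities were 136 for Cebpa (95% Poisson interval 74.6 to 229), 138 for Cebpb (75.4 to 231), 88.0 for Cebpd (40.2 to 167), 128 for Cebpe (68.0 to 218) and 109 for Cebpg (56.3 to 190). These intervals cover counting error only, and all 5 overlap each other, so the order of the genes is not separated by the counts. Over the joined windows of 481 kb the density was 118 per Mb (89.7 to 154), against 44.7 per Mb over whole chromosomes. Counts also differed between genes of different length, for reasons that were not tested. With the same flanks the median was 8 intervals (quartiles 5 and 12) over all protein-coding genes. It was 4 over genes of a length like Cebpb, so genes of similar length are the closer comparison.

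**Figure D1:**
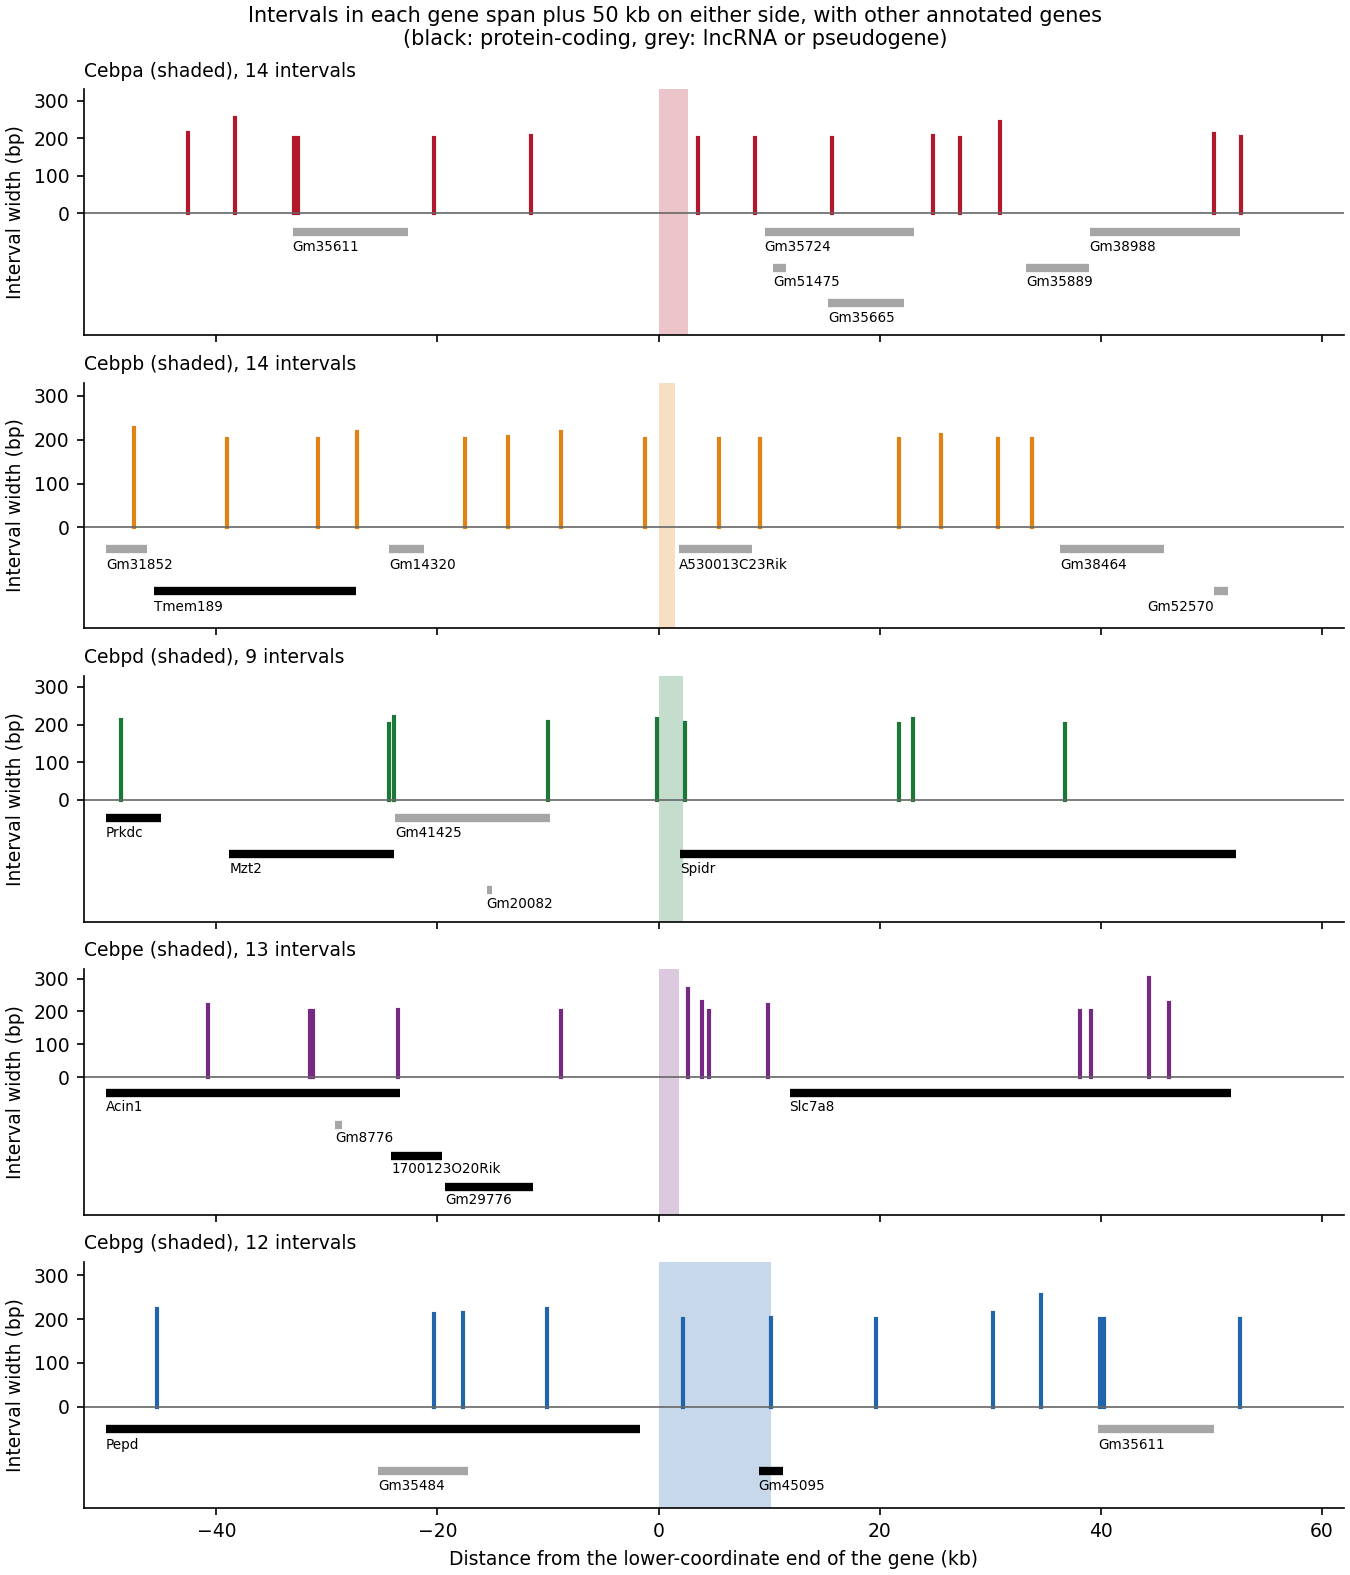
Each vertical line is an interval, at its distance in kb from the lower-coordinate end of the gene (horizontal axis) and as high as its width in bp (vertical axis). Shading marks the C/EBP gene, and bars below 0 mark other genes, black for protein-coding and grey for lncRNA or pseudogene spans, cut at the window. The spans of Cebpa, Cebpb, Cebpd and Cebpe hold no interval, Cebpd has one just outside each end, and the intervals of Cebpa and Cebpb are spread over both flanks.

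Set beside protein-coding genes with a span between 0.5 and 2 times their own, all 5 C/EBP genes lay above the median. Cebpb had 14 intervals against a median of 4 (quartiles 1 and 7) in 3061 genes, of which 3.07% had at least as many. Cebpe had 13 against 4.5 (1.75 and 8) in 3392 genes, with 6.22% at or above it, and Cebpa had 14 against 6 (3 and 10) in 3211 genes, with 7.1% at or above it. These 3 genes lay above the upper quartile of their comparison. Cebpg had 12 against 8 (5 and 11) in 6854 genes, just above the quartile, and 21.5% had as many or more. Cebpd had 9 against 6 (3 and 10) in 2838 genes, 32.9% of which reached its count, so it lay within the middle range. The members were not drawn at random, and these shares describe their place in the distribution. For Cebpa, Cebpb and Cebpe the place depended on the setting. With all intervals, 92.9%, 96.9% and 93.8% of the genes of similar length had fewer than these 3 genes in that order, without the intervals of 201 bp 74.96%, 76.3% and 85.1% had, and of all protein-coding genes, whatever their length, 81.1%, 81.1% and 76.9% had.

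Short genes include many chemoreceptor genes and Gm-numbered predicted genes, 1545 of the 3061 compared with Cebpb and 1520 of the 3392 compared with Cebpe. Without them, in a comparison chosen after the data had been seen, 5.61% of 1516 genes reached the count of Cebpb, 10.6% of 1872 that of Cebpe and 7.87% of 2758 that of Cebpa. The shares for Cebpd and Cebpg were 36.5% and 22.8%. The medians of the remaining genes were 6 for Cebpb and for Cebpe, 7 for Cebpa and for Cebpd, and 8 for Cebpg, so all 5 C/EBP genes stayed above them.

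**Figure D2:**
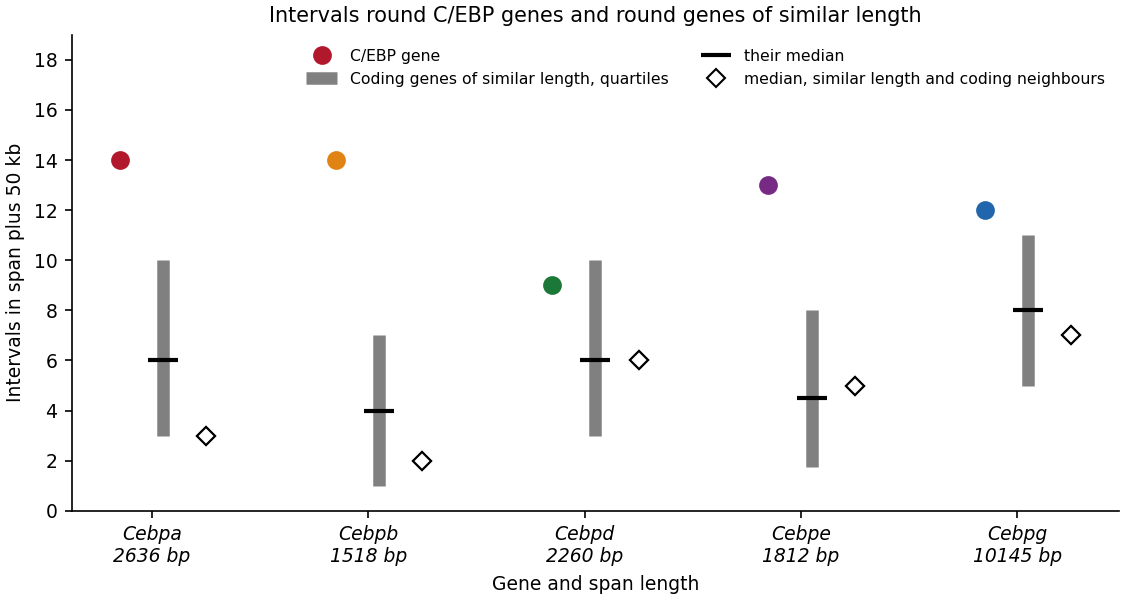
Number of intervals in the gene span plus 50 kb on either side (vertical axis) for each C/EBP gene (coloured point), beside the quartiles (grey bar) and median (black line) of protein-coding genes of similar length. Diamonds give the median of genes that also have a similar number of coding neighbours, and the C/EBP gene is above both medians in all 5 cases, with Cebpd inside the quartile range.

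Although the C/EBP genes are short, they did not all lie in large regions free of other protein-coding genes. Cebpa (chr7:35119293-35121928) had no other protein-coding span within 50 kb, the nearest being Gm45095 at 61.6 kb on the lower side and Slc7a10, an amino acid transporter gene, at 64.2 kb on the upper side. Cebpb (chr2:167688915-167690432) had 1, Tmem189, 27.4 kb away, and its upper side was free of protein-coding genes for 240 kb up to Ptpn1, the phosphatase PTP1B that acts on the insulin receptor. By contrast, Cebpd (chr16:15887286-15889545) overlapped the span of Spidr, a DNA repair scaffold gene, by 322 bp and had 3 coding spans in its window. Cebpe (chr14:54710363-54712174) had 4, and Cebpg (chr7:35046422-35056566) overlapped Gm45095 by 1084 bp and lay 1.71 kb from Pepd, which encodes the peptidase prolidase. Large regions without other protein-coding spans therefore surrounded Cebpa and, on the upper side, Cebpb, and not the other 3 genes. These regions were not empty of annotated genes, as they held lncRNA spans such as Gm35724 at Cebpa and A530013C23Rik at Cebpb.

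Genes of similar length that also had a similar number of coding neighbours, give or take 1, placed Cebpa, Cebpb and Cebpg further from the median. For Cebpb the median was 2 in 1146 such genes, and 98.6% had fewer intervals than its 14. For Cebpa it was 3 in 811 genes, with 96.9% below 14. Cebpe stood against a median of 5 with 95.2% below, Cebpg against 7 with 83.3% below and Cebpd against 6 with 72.2% below. Cebpa and Cebpb thus had many intervals for genes with few coding neighbours. The share below was higher than by length alone for every member. By length alone it was 67.1% for Cebpd and 78.5% for Cebpg. With similar coding neighbours, 21.8% of the genes compared with Cebpd had more intervals. Chemoreceptor and Gm-numbered genes were not left out of this comparison, and the 2 selections were not combined.

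Cebpa itself, an intronless gene of 2636 bp for the factor that maintains the hepatocyte programme, held no interval in its span. Counted from the start on the plus strand, 6 intervals lay upstream, at 11.6, 20.3, 32.6, 33.0, 38.3 and 42.6 kb, and 8 lay downstream, at 3.55, 8.69, 15.7, 24.8, 27.3, 30.9, 50.3 and 52.7 kb. The nearest to the start was therefore on the far side of the gene, a 201 bp interval at chr7:35122740-35122940 centred 912 bp past its upper end. No interval lay between that site and 11.6 kb upstream of the start, so the promoter and the coding part were both in a gap of the list. The widest of the 14 was 255 bp, at chr7:35080888-35081142, and 9.06% of the whole list was wider than 250 bp.

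A pair of 201 bp intervals stood at the lower end of the lncRNA gene Gm35611 between Cebpg and Cebpa, at chr7:35086234-35086434 and chr7:35086606-35086806. Its 3 annotated promoter windows were all overlapped by an interval. On the other side of Cebpa, 1 interval lay within 1 kb of the lower end of the lncRNA gene Gm35724 and 1 at that of Gm35665, and 2 were inside Gm38988. In all, 7 intervals lay in the 62.7 kb between Cebpg and Cebpa. Of these, 5 are the shared ones, so they cannot be assigned to one gene by position.

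Cebpb, intronless as well and 1518 bp long, had no interval in its span or within 1 kb of either end. Its nearest interval, at chr2:167687630-167687830 and 201 bp wide, was centred 1185 bp upstream of the start. The other 7 upstream intervals were centred 8.79, 13.6, 17.5, 27.3, 30.8, 39.0 and 47.4 kb away, and the 6 downstream ones 5.50, 9.18, 21.8, 25.6, 30.7 and 33.8 kb from the start. These sites had a median spacing of 5.20 kb and a largest gap of 12.6 kb, the smallest such gap among the 5 windows. The interval 27.3 kb upstream overlapped the end window of Tmem189, which encodes the plasmalogen-forming desaturase of ether lipids. The one at 47.4 kb was inside the lncRNA gene Gm31852. Downstream, 1 interval lay inside the lncRNA gene A530013C23Rik and 1 within 1 kb of its upper end.

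Cebpd showed the reverse arrangement, with fewer intervals in the window and one at each end of the gene. A 214 bp interval at chr16:15887045-15887258 was centred 134.5 bp outside the lower end, and a 203 bp interval at chr16:15889605-15889807 was centred 161 bp outside the upper end. The upper one also lay at the lower end of Spidr and may belong to either gene. The remaining 7 were centred 9.98, 23.9, 24.4 and 48.6 kb on the lower side and 19.5, 20.8 and 34.5 kb on the upper side. The one at 9.98 kb stood at the upper end of the lncRNA gene Gm41425, and those at 23.9 and 24.4 kb stood within 1 kb of both its lower end and the upper end of Mzt2, a spindle organiser gene. The one at 48.6 kb was inside Prkdc, the DNA-dependent protein kinase gene, and the 3 on the upper side were inside Spidr.

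Cebpe, the granulocyte member, had no interval in its 1812 bp span and a cluster just above it. Intervals of 270, 230 and 201 bp at chr14:54712922-54713191, chr14:54714195-54714424 and chr14:54714816-54715016 were centred 882.5 bp, 2.14 kb and 2.74 kb outside the upper end, and another followed at 8.05 kb. Only 1 interval lay within 20 kb on the lower side, at 8.85 kb. Farther out, 3 were inside Acin1, an RNA-processing gene, 1 at 23.5 kb overlapped the end windows of Acin1 and 1700123O20Rik, and 4 at 36.3 to 44.4 kb were inside Slc7a8, an amino acid transporter gene. The predicted gene Gm29776 had none within 1 kb of its ends. The widest interval of all 5 windows, 301 bp at chr14:54754617-54754917, was one of the 4 inside Slc7a8.

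Cebpg, the longest member with 10145 bp, was the only one with intervals overlapping its span. Among genes of similar length, 68.8% had a span overlapped by an interval. The share was 42.1% at the length of Cebpa, 21.9% for Cebpb, 39.1% for Cebpd and 25.6% for Cebpe. A 202 bp interval at chr7:35056478-35056679 straddled the annotated start, with its centre 12.5 bp outside the gene, and is the one marked in the sequence above. It also lies inside Gm45095, a predicted gene on the opposite strand, and the list cannot assign it to one of them. A 201 bp interval at chr7:35048571-35048771 was centred 7.90 kb downstream of the start, inside the gene. Upstream the next ones were at 9.57, 20.2, 24.4, 29.8, 30.1 and 42.5 kb, the last 5 of them being those shared with Cebpa. Downstream of the gene, 4 intervals lay inside Pepd, 1 of them within 1 kb of the upper end of the lncRNA gene Gm35484.

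An interval overlapped the 1 kb to either side of a gene end in 4 of the 5 genes, namely Cebpa, Cebpd, Cebpe and Cebpg. The share with such an interval was 49.6% among genes of a length like Cebpa, 28.4% for Cebpb, 47.8% for Cebpd, 32.2% for Cebpe and 64.6% for Cebpg, and 61.5% over all protein-coding genes. With 5 genes, the gap to that last share is smaller than what 1 gene contributes. The count thus does not set the family apart from all protein-coding genes. The shares at similar length were below 61.5% for every member except Cebpg, and the count was not tested against them. With windows of 500 bp, 2 genes remained, Cebpd and Cebpg, against 56.0% of all protein-coding genes, and with 5 kb all 5 did, against 76.8%.

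Measured from the nearer end to the nearest interval centre, the distances were 12.5 bp for Cebpg, 134.5 bp for Cebpd, 882.5 bp for Cebpe, 912 bp for Cebpa and 1185 bp for Cebpb. Among genes of similar length, 5.06% had a nearer interval than Cebpg, 25.2% than Cebpd, 30.8% than Cebpe, 48.1% than Cebpa and 28.9% than Cebpb. Cebpa was therefore close to the middle of its comparison and Cebpg near the lower edge. From the annotated start alone, the distance was 3.55 kb for Cebpa, 1.19 kb for Cebpb and 12.5 bp for Cebpg. Of 8696 CpG-rich promoter windows of other genes, 92.4% had an interval nearer to the start than Cebpa, 89.9% than Cebpb and 6.72% than Cebpg, and the median distance was 103 bp. Relative to that class the starts of Cebpa and Cebpb lay far from an interval, while relative to genes of similar length, of which 56.8% and 25.0% were nearer, they did not.

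**Figure D3:**
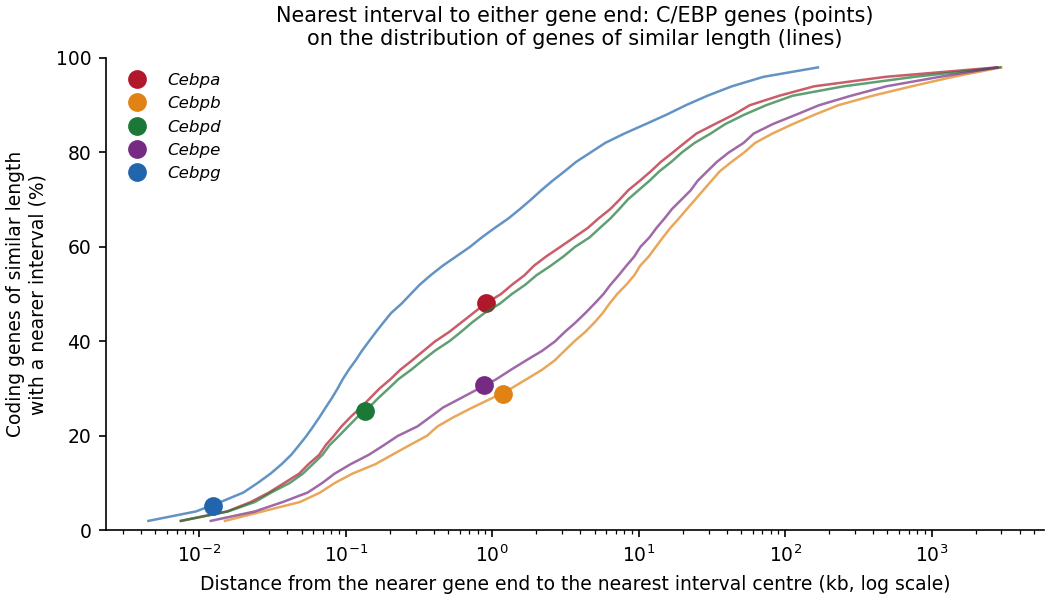
Lines give, for protein-coding genes as long as each C/EBP gene, the cumulative percentage (vertical axis) with an interval centre nearer to either gene end than the distance in kb on the logarithmic horizontal axis. Points place the C/EBP genes on the line of the same colour, with Cebpg at 0.0125 kb the nearest and Cebpb at 1.19 kb the farthest.

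The place of each gene among those of similar length changed in its own way as the flank was widened. With flanks of 10 kb, Cebpe had 5 intervals against a median of 1 and Cebpb 4 against 1, whereas Cebpa had 2 against 2, Cebpd 3 against 2 and Cebpg 4 against 3. For Cebpe, 96.8% of similar genes had fewer intervals at 10 kb, 78.8% at 30 kb, 90.4% at 40 kb and 93.8% at 50 kb, so it was high both close to the gene and farther out. Cebpa was high only with distance, as 47.5% of similar genes had fewer intervals at 10 kb, 83.8% at 30 kb and 92.9% at 50 kb. From 10 kb outward Cebpb stayed high, at 92.7% with 10 kb and 98.6% with 100 kb. It had 27 intervals against a median of 9 with 100 kb, and 0 against 0 with 1 kb. Cebpd fell to 57.6% with 100 kb, at 14 against 12.

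**Figure D4:**
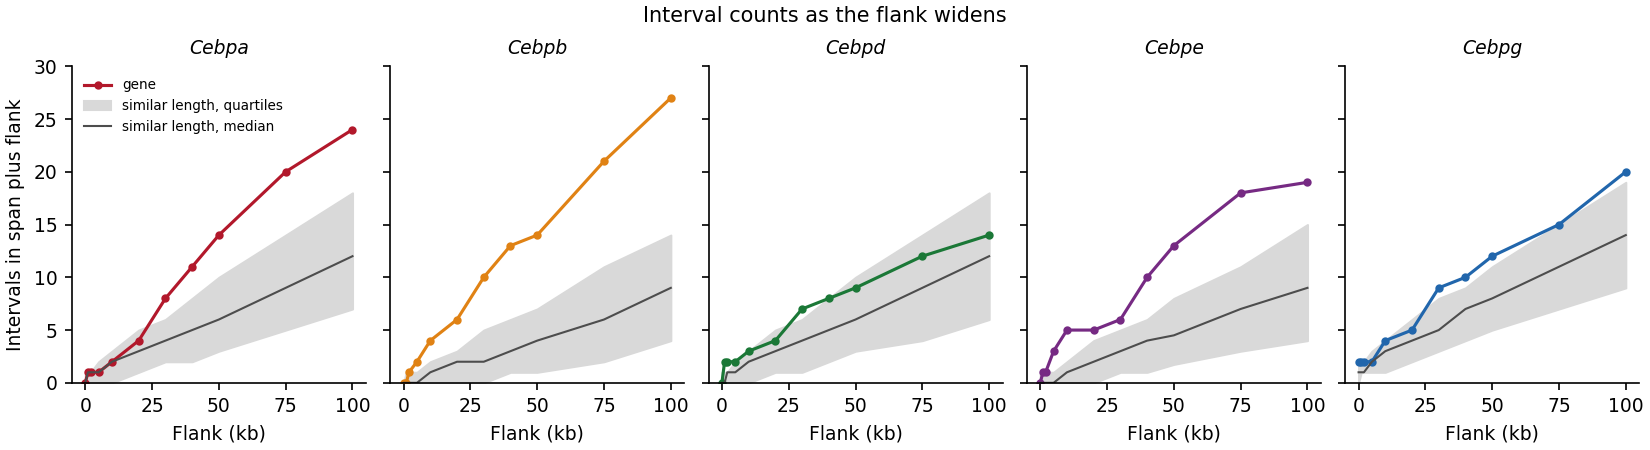
Number of intervals in the gene span plus flank (vertical axis) as the flank grows from 0 to 100 kb (horizontal axis), for each C/EBP gene (coloured line) and for protein-coding genes of similar length (black line, median; grey band, quartiles). Cebpb lies above the band from 5 kb on and reaches 27, Cebpa lies above it from 30 kb on, and Cebpd remains close to it or inside.

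Interval widths in the 5 windows were like those of the list. Of the 57 intervals, 30 were wider than the narrowest width of 201 bp (52.6%, exact Clopper-Pearson 95% interval 39.0 to 66.0), against 53.8% of the whole list, and the median was 203 bp in both. Wider intervals made up 5 of 14 round Cebpb (35.7%, 12.8 to 64.9), 7 of 14 round Cebpa (50.0%, 23.0 to 77.0), 7 of 13 round Cebpe (53.8%, 25.1 to 80.8), 7 of 12 round Cebpg (58.3%, 27.7 to 84.8) and 6 of 9 round Cebpd (66.7%, 29.9 to 92.5). These 95% intervals overlap and cover counting error only, so the genes are not separated at these counts, and a difference between them was not tested. Only 3 of the 57 were wider than 250 bp (5.26%), against 9.06% of the list.

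By position, 16 of the 57 lay within 1 kb of the end of some annotated gene (28.1%, 17.0 to 41.5), 5 of them at a C/EBP gene and 11 at another gene, against 18.5% of the list. A further 21 were elsewhere inside a gene span (36.8%, 24.4 to 50.7, against 45.4%), and 20 were between genes (35.1%, 22.9 to 48.9, against 36.1%). Each of these 95% intervals contains the value of the list. The windows were placed on gene ends, which adds to the first class by construction.

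The genes most like each member were sought among those of similar length with the same number of intervals, by the smallest difference in distance to the nearest interval centre. This likeness rests on 1 list and not on samples. For Cebpd they were Rpl26 (a ribosomal protein gene), Phf23 and Cox8a (a cytochrome c oxidase subunit gene), out of 197 genes with 9 intervals, and their distances of 134, 138.5 and 129 bp were within 5.5 bp of its own. For Cebpg they were Mpnd, Agxt (a peroxisomal aminotransferase gene of hepatocytes) and Polr2g (an RNA polymerase II subunit gene), out of 425 with 12 intervals, at 13, 11.5 and 11.5 bp. Cebpa was closest to Gm4981, LOC115488529 and Depp1 among 95 genes, at 926.5, 886 and 866 bp. Cebpb was closest to Rhbdl1, Gm4981 and LOC115488529 among 39 genes, at 1419, 926.5 and 886 bp, and Cebpe to Duxf3, Mcemp1 and Tgfbr3l among 66 genes, at 832.5, 1114.5 and 638 bp. Cebpb and Cebpe had the smallest pools of genes, which follows from their high counts, since matches had to have the same count. The matches of Cebpb differed by 234 bp or more.

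Related genes were described by the same counts, with a median of 13 intervals and 4 of 5 genes with an interval at an end for the C/EBP genes, and a median of 8 and 61.5% for all protein-coding genes. Among 11 bZIP partners and relatives the median was 9, and 10 had an interval at an end. Hlf, a PAR-domain bZIP factor, had the most with 15, followed by Ddit3, the stress-induced C/EBP relative CHOP, with 13, and the exception at the ends was the repressor gene Nfil3, named after its value was seen. Among 6 regulators of C/EBP proteins the median was 15 and all 6 had an interval at an end, with 18 each for Cop1 and Fbxw7, which encode parts of ubiquitin ligases. Among 6 genes of signals that induce C/EBP genes the median was 14, Nr3c1, the glucocorticoid receptor gene, had 24, and Insr, the insulin receptor gene, had 20. Of these 6, Nr3c1 alone lacked an interval at an end.

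Liver genes regulated by C/EBP factors had a median of 11 intervals, between 7 and 14, and 13 of 14 had one at an end. Alb and Cps1, for serum albumin and the first urea cycle enzyme, had 14 each. The acute phase gene Saa1 was the exception at the ends, again named after its value was seen. None of the genes in these 4 lists was without an interval in its window. Windows without an interval were also a minority among other genes. They made up 363 of 6854 at a length like Cebpg and 357 of 3211 at a length like Cebpa. The lists differ in gene length, with medians of 5.50 kb, 16.8 kb, 62.3 kb and 8.20 kb in the order given against 2.26 kb for the C/EBP genes, so their counts are not on an equal footing with those of the short C/EBP genes.

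The tissue label was set against marker genes. All 6 hepatocyte markers had an interval at an end, against 2 of 6 macrophage and Kupffer cell, 2 of 6 granulocyte, 2 of 4 lymphocyte and 1 of 3 endothelial markers, and against 61.5% of all protein-coding genes. Gene length differed between these lists, with a median of 11.9 kb for hepatocyte and 2.64 kb for granulocyte markers, and among genes of the lengths of Cebpe and Cebpa the share was 32.2% and 49.6%, so the granulocyte count was near that of other short genes. A list of 8 genes of the granulocyte programme, in which C/EBPε acts, holds the same 6 granulocyte markers and 2 more. Of the 8, with a median length of 3.15 kb, 3 had an interval at an end (37.5%), within the range of those short genes, and the median count in the windows was 8, between 4 for Mmp8 and Ngp and 16 for Elane. S100a8 followed with 10. The labels do not explain whether whole liver or a part of its cells was used. Fewer cells of a type and less open chromatin per cell cannot be told apart. The list does not tell which cells gave the intervals round Cebpe.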

How the data were processed

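ATAC-seq libraries of 129S1/SvImJ and C57BL/6J livers, 3 each, enter as 1 combined list. The authors deposited interval positions on mm10 without score, count or signal. The submitters' processing notes name fastp, Bowtie2 and HOMER. How read ends were shifted, reads filtered, peaks thresholded and libraries combined is not given in the sources used here. Thresholds decide which weak sites are listed, so a missing interval does not show closed chromatin. The strains were not compared, since no column names one.

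Starts were converted to 1-based positions. Gene spans came from RefSeq for GRCm38.p6, and strand from its promoter table. An interval belonged to a window when at least 1 bp overlapped. Similar length meant a span between 0.5 and 2 times the member's own, the members left out. Counting was tested on simulated data. Python 3.11.15, numpy 2.4.6, pandas 2.3.3, scipy 1.17.1 and matplotlib 3.10.9 were used.

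The members and lists were chosen with earlier results of these data known. Named were all members, coding neighbours, other neighbours with an interval at an end, the 3 genes most like each member, and from each list the 2 genes with most intervals and up to 2 with none. Alternatives were flanks of 10 and 100 kb, interval centres, intervals over 201 bp, intervals within 500 bp joined, other end windows and other comparison genes.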

Additional observations from a re-analysis of the deposited data

How the results depend on the processing

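All 5 C/EBP genes stayed above the median of their comparison genes with spans within 25%, with all protein-coding genes, with similar coding neighbours, without chemoreceptor and Gm-numbered genes, with flanks of 100 kb, without the intervals of 201 bp and with close intervals joined. The exception was the flank of 10 kb, where 4 did and Cebpa equalled its median. The place above the median was not equally high throughout: for Cebpb the share of comparison genes with fewer intervals went down to 76.3% without the intervals of 201 bp and 81.1% with all protein-coding genes, for Cebpa to 74.96% and 81.1%, and for Cebpe to 85.1% and 76.9%. The 57 distinct intervals became 18 with flanks of 10 kb, 86 with 100 kb and 30 without the intervals of 201 bp, as fewer or more bases or intervals enter by construction, and 53 when intervals within 500 bp were joined. Genes with an interval at an end numbered 4, but 2 with windows of 500 bp and 3 (without Cebpa) when intervals of 201 bp were left out. Of all protein-coding genes, 61.5%, 56.0% and 51.7% had one at these settings in that order. The share of wider intervals stayed between 50.0% and 58.1% with other flanks. No stricter peak threshold could be tried without scores. No paired analysis was possible because the list does not separate libraries, and for the same reason none was left out. Depth is unknown.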
